A study of Homo sapiens with 8 samples.

Results

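The 10 genes described here are negative feedback genes and transcriptional outputs of the RAS-RAF-MEK-ERK pathway, the MAPK cascade that drives growth of most melanomas. They are the dual-specificity phosphatases DUSP4, DUSP5 and DUSP6, the Sprouty genes SPRY1, SPRY2 and SPRY4, the Sprouty-related gene SPRED1, the ETS transcription factor genes ETV4 and ETV5, and PHLDA1. They were taken by gene symbol, matched on the Entrez identifier, and all 10 were listed among the 18478 genes of the authors' table. They were measured by RNA-seq in a pair of long-established lines of human melanoma, C8161 and A2058. ATF3, a transcription factor of the ATF/CREB family that cells induce under stress, had been introduced with a retrovirus, and each line had its neomycin control. Which promoter drove the retroviral gene, and whether the cells were clones, is not stated. All cells grew in DMEM with FBS and penicillin/streptomycin. The 4 groups were C8161 with ATF3 (3 libraries), C8161 neomycin control (3), A2058 with ATF3 (1) and A2058 neomycin control (1).

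In this cascade, ligand-bound receptor tyrosine kinases activate RAS, and RAF, MEK and ERK are then phosphorylated in turn. Active ERK induces its own inhibitors. Sprouty proteins act between the receptor and RAF, SPRED1 brings the RAS inhibitor neurofibromin to the membrane, and the phosphatases remove phosphate from ERK itself. DUSP6 acts in the cytoplasm and DUSP5 in the nucleus, both with preference for ERK, whereas DUSP4 is a nuclear phosphatase with a wider range of MAPK substrates. ETV4 and ETV5 belong to the PEA3 group of ETS factors, whose transcripts follow ERK activity, and PHLDA1 encodes a pleckstrin homology-like protein whose transcript does so too. In melanoma, transcripts of this kind are commonly read as a measure of ERK output.

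The values were RPKM, read counts scaled to transcript length and library size. Each A2058 library had its own column, whereas each C8161 arm had 1 combined column, so no value has a replicate spread, no test was run, and every difference describes these columns alone. ATF3 was at 62.6 RPKM with introduced ATF3 against 4.76 RPKM in the control in C8161, and at 4.71 against 1.22 RPKM in A2058. A2058 with introduced ATF3 thus held about as much ATF3 transcript as the C8161 control. The columns summed to 470633 to 481302 RPKM, and 10866 to 11753 genes reached 1 RPKM in each. The melanoma label was checked against 12 lineage and melanoma markers. All 12 were at 1 RPKM or more in both A2058 columns. In C8161, 8 of the 12 lay under 1 RPKM with ATF3 and 9 in the control. SOX10, the neural crest factor that maintains the melanocyte lineage, was at 0.05 RPKM in C8161 with ATF3 and 0.06 in its control, and TYR, tyrosinase, was listed at 0 in both. MCAM and CSPG4, surface antigens of melanoma, were present in C8161, at 37.3 and 12.5 RPKM with ATF3 and 38.2 and 13.3 RPKM in the control.

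RefSeq promoter windows of GRCh38.p14, from 250 bases before to 50 bases after an annotated start, were given for 6 of the 10 genes. Those of DUSP6, SPRY1, SPRY2 and SPRY4 are shown, since among these 6 genes their levels differ most between the lines. SPRY1 has 2 windows and SPRY2 has 3, of which the most upstream is shown for SPRY2. Capitals mark matches, on either strand, of CCGGAA (an ETS core), AGGAAG (the PEA3 motif), TGACGTCA (the ATF and CREB site), TGACG (its short form) and TGANTCA (the AP-1 site). The short form lies within the full ATF and CREB site.
DUSP6, chr12:89352452-89352751, minus strand: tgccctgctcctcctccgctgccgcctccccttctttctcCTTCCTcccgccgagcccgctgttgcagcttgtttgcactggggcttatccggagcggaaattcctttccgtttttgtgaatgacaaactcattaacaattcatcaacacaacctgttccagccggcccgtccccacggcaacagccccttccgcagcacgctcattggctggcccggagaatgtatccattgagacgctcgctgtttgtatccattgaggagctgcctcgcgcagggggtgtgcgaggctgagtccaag
SPRY1, chr4:123396545-123396844, plus strand: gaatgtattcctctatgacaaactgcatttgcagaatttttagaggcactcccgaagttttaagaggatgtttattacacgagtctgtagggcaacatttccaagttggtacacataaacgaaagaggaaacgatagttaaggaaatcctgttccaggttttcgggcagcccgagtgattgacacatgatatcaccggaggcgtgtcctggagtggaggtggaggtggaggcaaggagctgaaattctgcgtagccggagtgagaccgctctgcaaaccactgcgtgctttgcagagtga
SPRY1, chr4:123398136-123398435, plus strand: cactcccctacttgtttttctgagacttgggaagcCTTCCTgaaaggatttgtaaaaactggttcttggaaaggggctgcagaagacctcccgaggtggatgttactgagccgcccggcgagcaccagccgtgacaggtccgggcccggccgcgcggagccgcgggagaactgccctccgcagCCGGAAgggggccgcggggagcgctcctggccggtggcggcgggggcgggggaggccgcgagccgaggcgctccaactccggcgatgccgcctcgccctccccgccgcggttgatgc
SPRY2, chr13:80341077-80341376, minus strand: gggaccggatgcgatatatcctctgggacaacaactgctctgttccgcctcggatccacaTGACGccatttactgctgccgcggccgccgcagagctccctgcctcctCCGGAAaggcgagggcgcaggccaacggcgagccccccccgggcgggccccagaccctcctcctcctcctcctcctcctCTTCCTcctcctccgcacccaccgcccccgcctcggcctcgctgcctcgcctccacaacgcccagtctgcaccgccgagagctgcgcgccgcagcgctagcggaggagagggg
SPRY4, chr5:142324198-142324497, minus strand: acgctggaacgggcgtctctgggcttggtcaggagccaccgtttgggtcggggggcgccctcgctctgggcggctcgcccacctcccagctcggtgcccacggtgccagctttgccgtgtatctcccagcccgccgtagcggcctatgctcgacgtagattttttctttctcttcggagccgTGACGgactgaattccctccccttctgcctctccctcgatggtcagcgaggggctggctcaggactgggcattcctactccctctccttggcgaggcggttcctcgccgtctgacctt
Of 35116 RefSeq promoter windows, 17.2% hold CCGGAA, 33.6% hold AGGAAG, 1.85% hold TGACGTCA, 24.6% hold TGACG and 7.71% hold TGANTCA. A match to CCGGAA was found in the downstream SPRY1 window, in the SPRY2 window and, not printed, in that of PHLDA1. AGGAAG matched in the windows of DUSP6, SPRY1 (downstream), SPRY2 and, not printed, in the other SPRY2 windows and in that of SPRED1. TGACG matched in SPRY2 and SPRY4. No window of the 6 genes held TGACGTCA or TGANTCA, which says only that these letters are not in these stretches. A match is a description and not a bound site.

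Introduced ATF3 was accompanied by little difference in the transcripts compared, 9 of the 10 in C8161 and all 10 in A2058. This comparison asks what differs between cells with introduced ATF3 and their controls. Ratios are differences of log2(RPKM + 1), ATF3 minus neomycin. A gene was compared if either column had it at 1 RPKM or more. The added 1 understates differences of low genes. A log2 ratio of 0.25 in size, 1.19-fold, served as the mark of a call. In C8161, 2.58% of 10941 genes were called higher and 3.2% lower. In A2058, 2.34% of 11883 genes were called higher and 1.85% lower. None of the 9 genes compared in C8161 and none of the 10 in A2058 was called in either direction. At these shares of all genes, so small a set would often hold no call, so this is no mark of these genes. Each ratio was also set beside a level band, the range that holds the middle 95% of ratios among 500 genes of closest level. The band describes spread across genes and is not a test. In C8161, 2.74% of genes lay above their band and 2.67% below, and in A2058 2.67% above and 2.72% below. All 9 genes compared in C8161 and all 10 in A2058 lay inside it. Their median log2 ratio was 0.025 in C8161, where that of all genes was 0.007, and 0.003 in A2058, where that of all genes was 0.004.

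**Figure D1:**
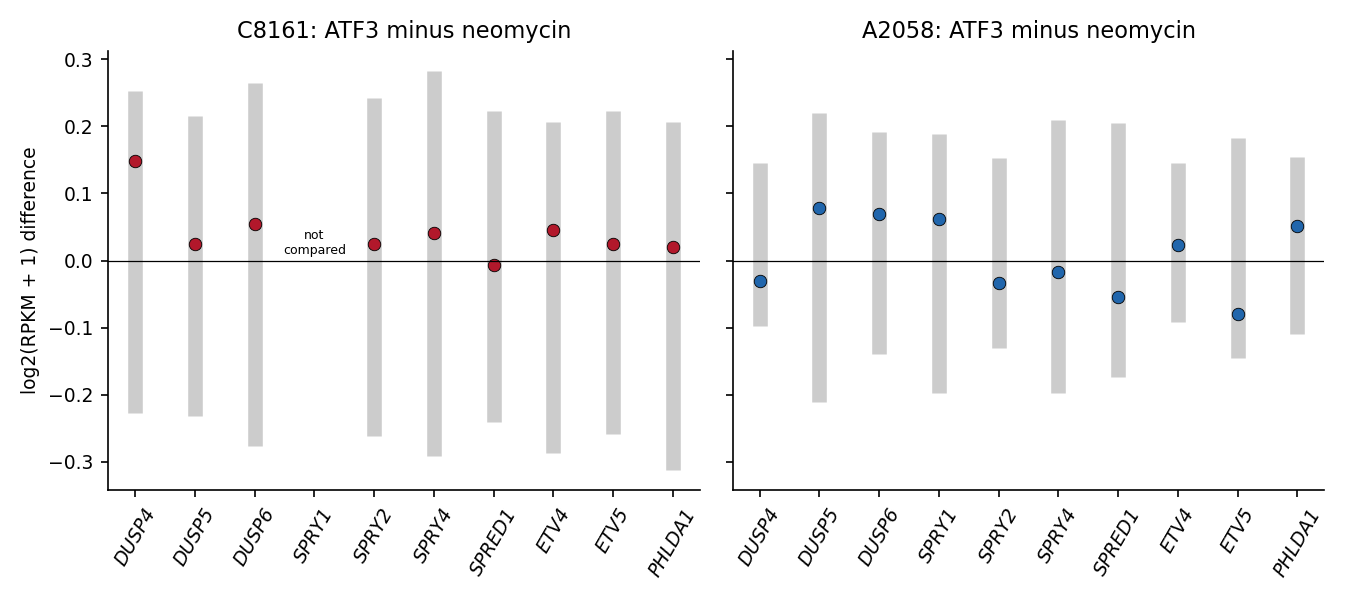
Log2 ratio of each gene, ATF3 minus neomycin on the log2(RPKM + 1) scale, in C8161 (left) and A2058 (right); points are single differences without replicates and grey bars are the level bands. Every point lies inside its bar, and SPRY1 was under 1 RPKM in both C8161 columns and was not compared there.

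Among the phosphatases, DUSP4 (Entrez 1846, chromosome 8, 29333064 to 29350684, GRCh38.p14) had the largest ATF3 ratio of the genes compared. It was at 4.09 RPKM with ATF3 against 3.59 RPKM in C8161, a log2 ratio of 0.15 in a level band of −0.23 to 0.25, and 89% of genes had a lower ratio or the same. In A2058 it was at 79.0 RPKM with ATF3 against 80.7 RPKM, a log2 ratio of −0.03. DUSP4 was thus slightly higher with ATF3 in the line where it is scarce, and near the control value in the line where it is abundant. DUSP5 (Entrez 1847; chromosome 10, 110497907 to 110511533) was at 16.1 against 15.8 RPKM in C8161 and at 8.17 against 7.68 RPKM in A2058. DUSP6 (Entrez 1848; chromosome 12, 89347235 to 89352501) was at 10.5 against 10.0 RPKM in C8161 and at 28.0 against 26.6 RPKM in A2058, a 1.04-fold and a 1.05-fold difference. Both lay a little above their controls in both lines, well inside their bands.

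SPRY1 (Entrez 10252) lies on chromosome 4, 123396795 to 123403760. With ATF3 it was at 0.40 RPKM in C8161, against 0.47 RPKM in the control, too low to compare, and at 10.2 against 9.75 RPKM in A2058. SPRY2 (Entrez 10253; chromosome 13, 80335976 to 80341126) was at 10.9 against 10.7 RPKM in C8161 and at 29.9 against 30.6 RPKM in A2058. SPRY4 (Entrez 81848; chromosome 5, 142310430 to 142325021) was at 18.8 against 18.2 RPKM in C8161 and at 11.6 against 11.8 RPKM in A2058. In each line the Sprouty values of both arms lay close together. SPRED1 (Entrez 161742; chromosome 15, 38252836 to 38357249) was at 12.7 against 12.8 RPKM in C8161 and at 13.5 against 14.1 RPKM in A2058.

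ETV4 (Entrez 2118) lies on chromosome 17, 43527846 to 43546340. With ATF3 it was at 37.6 RPKM in C8161, against 36.4 RPKM in the control, and at 81.1 against 79.8 RPKM in A2058. ETV5 (Entrez 2119; chromosome 3, 186046314 to 186109089) was at 44.3 against 43.6 RPKM in C8161 and at 25.1 against 26.5 RPKM in A2058. Its log2 ratio of −0.08 in A2058 was the lowest among the genes compared in either line, in a level band of −0.15 to 0.18. PHLDA1 (Entrez 22822; chromosome 12, 76025447 to 76031776) was at 56.7 against 55.9 RPKM in C8161 and at 65.9 against 63.6 RPKM in A2058. These 3 outputs of the pathway differed from their controls by at most 1.06-fold.

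The precision of these ratios can be judged roughly in A2058. Low values in its columns fit whole-read steps best, though loosely, at a depth of about 17900000 reads (ATF3) or 18550000 reads (control). At these depths, and with the longest annotated transcripts, the genes would have about 360 reads (DUSP5, control) to 9520 reads (PHLDA1). Counting error alone would then give their log2 ratios a standard error of 0.02 (DUSP4, PHLDA1) to 0.11 (DUSP5). The authors' transcript lengths are unknown, so these are approximations, and they leave out the spread between cultures. The combined C8161 columns showed weaker steps, and their depth is unknown.

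Most of the 10 genes differed more between the lines than between the arms. The second comparison set C8161 against A2058, once in the neomycin controls and once in the cells with ATF3, which are separate columns. Among 12372 genes compared in the controls, 9.36% were higher and 20.7% lower in C8161 by a log2 ratio of 1 or more. Of the 10 feedback genes, none was higher and 5 were lower by that mark, namely DUSP4, DUSP6, SPRY1, SPRY2 and ETV4. With ATF3, 9.92% of 12381 genes were higher and 21.4% lower, and the same 5 feedback genes were lower. The median log2 ratio of all 10 feedback genes was −0.65 in the controls and −0.65 with ATF3, against −0.185 and −0.182 for all genes. SPRY1 entered this comparison through A2058 alone. For all 10 genes both C8161 values lay to one side of both A2058 values, 3 above and 7 below. Of 12493 genes, 36.7% lay above and 54.7% below in this way, 91.4% in all, so this is no mark of these genes. Fewer cells carrying a transcript and less transcript per cell cannot be told apart in such bulk RNA.

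**Figure D2:**
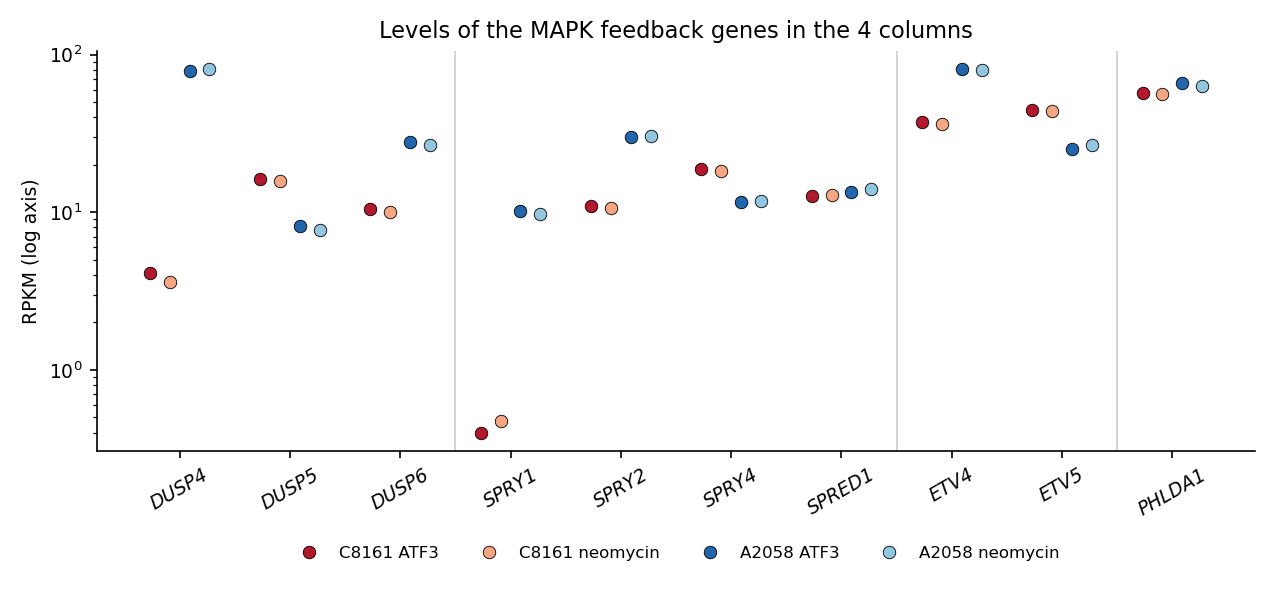
RPKM of each gene on a log axis in the 4 columns, 1 value per column, grouped as phosphatases, Sprouty and SPRED genes, ETS factors and PHLDA1. In each gene the ATF3 and neomycin values of a line lie close together, whereas DUSP4 and SPRY1 lie over 10-fold lower in C8161 than in A2058.

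**Figure D3:**
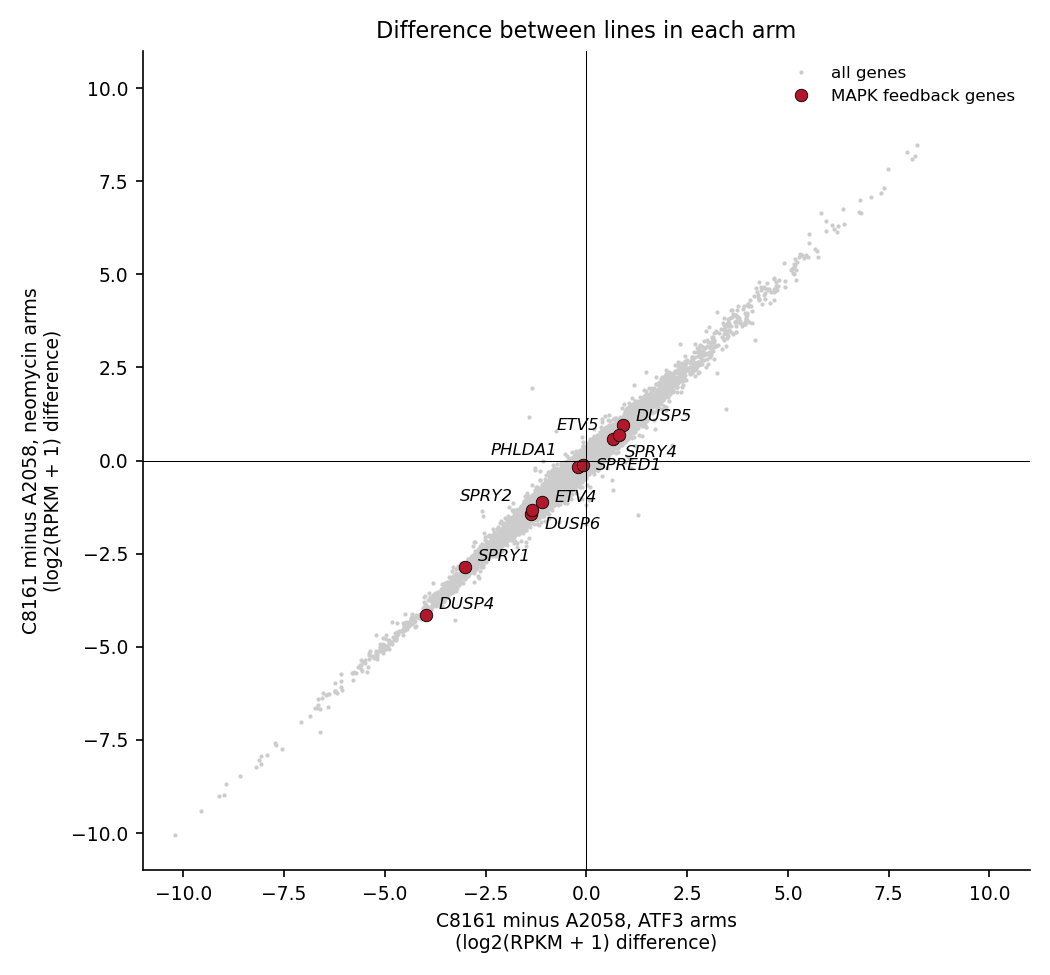
Difference between lines, C8161 minus A2058, in log2(RPKM + 1), in the ATF3 arms (horizontal axis) and in the neomycin arms (vertical axis), for all genes at 1 RPKM or more in a column (grey) and the 10 feedback genes (red). The feedback genes fall near the diagonal, from DUSP4 at −3.97 and −4.15 to DUSP5 at 0.90 and 0.96.

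The 3 phosphatases differed in make-up between the lines. DUSP4 was at 4.09 RPKM in C8161 with ATF3 and 3.59 RPKM in its control, against 79.0 and 80.7 RPKM in A2058, 19.3-fold and 22.5-fold lower in C8161. Its log2 ratio between the controls, −4.15, lay below its level band of −2.56 to 1.49, and DUSP4 was the only one of the 10 genes outside its band, in the controls and likewise with ATF3. In the controls 2.65% of all genes lay above and 2.31% below their bands, and with ATF3 2.7% above and 2.37% below. DUSP6 was 2.67-fold lower in C8161 than in A2058 with ATF3 and 2.65-fold lower in the controls. DUSP5 went the other way and was 1.97-fold higher in C8161 with ATF3 and 2.06-fold higher in the controls. Its log2 ratios of 0.90 and 0.96 lay just under the mark of 1. As a share of the summed RPKM of the 3 phosphatases, DUSP5 made up 52.6% in C8161 with ATF3 and 53.7% in its control, against 7.09% and 6.68% in A2058. DUSP4 made up 13.3% and 12.2% in C8161 against 68.6% and 70.2% in A2058. The sum itself was 30.7 and 29.5 RPKM in C8161 and 115 RPKM in either A2058 arm. Among these 3 transcripts DUSP5 had the highest level in C8161 and DUSP4 in A2058. Phosphatases outside this sum were above DUSP5 in C8161, namely DUSP7 (17.4 RPKM with ATF3 and 18.9 RPKM in the control), DUSP14 (19.6 and 20.8 RPKM) and DUSP1 (50.3 and 51.4 RPKM). DUSP2, DUSP8, DUSP9, DUSP10 and DUSP16 were below it there. The sum and shares thus hold for the chosen genes alone.

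The Sprouty genes showed a similar exchange. SPRY1 was at 0.40 and 0.47 RPKM in C8161 against 10.2 and 9.75 RPKM in A2058, 25.6-fold lower with ATF3 and 20.7-fold lower in the controls. The C8161 values are so low that the size of these folds is uncertain. Its log2 ratios of −3.00 and −2.87 lay inside the wide level bands at that level. SPRY2 was 2.74-fold lower in C8161 with ATF3 and 2.86-fold lower in the controls. SPRY4 was 1.62-fold and 1.55-fold higher in C8161, a log2 ratio of 0.65 with ATF3 and 0.59 in the controls. SPRY4 made up 62.4% of the Sprouty sum in C8161 with ATF3 and 62% in its control, against 22.4% and 22.6% in A2058, where SPRY2 led with 57.8% and 58.7%. SPRED1 differed little, 1.06-fold lower in C8161 with ATF3 and 1.1-fold lower in the controls, and its small difference changed sign after quantile normalization.

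ETV4 and ETV5 also exchanged places. ETV4 was 2.16-fold lower in C8161 than in A2058 with ATF3 and 2.19-fold lower in the controls, whereas ETV5 was 1.77-fold and 1.64-fold higher. ETV4 over ETV5 was 0.849 in C8161 with ATF3 and 0.836 in its control, against 3.24 and 3.01 in A2058. After removal of trends with GC content and transcript length, the log2 ratio of ETV4 between the controls was −0.74 instead of −1.11, short of the mark. PHLDA1 was near the same level in all 4 columns, 1.16-fold lower in C8161 with ATF3 and 1.14-fold lower in the controls. The annotated bounds of ETV4 overlap those of DHX8, at 14.4 and 14.9 RPKM in C8161 against 25.4 and 27.0 RPKM in A2058. Those of DUSP6 overlap the read-through gene POC1B-DUSP6, and non-coding genes lie within the bounds of SPRY4, ETV5 and PHLDA1. Whether reads were assigned by strand is not given, so reads of such neighbours cannot be told apart. Between members and other genes, at most 2.86% of 50-base stretches (ETV5) were shared.

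**Figure D4:**
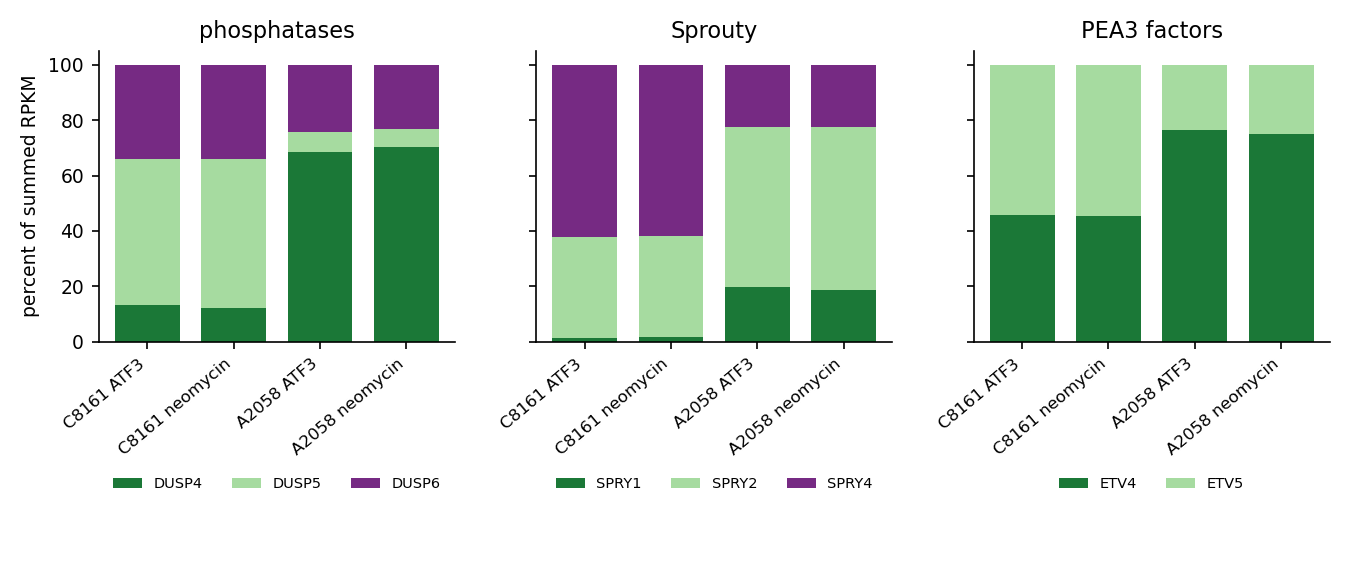
Share of each gene in the summed RPKM of the chosen genes of its family, in percent, for the phosphatases, the Sprouty genes and the PEA3 factors, in each of the 4 columns. Other family members, such as DUSP1, DUSP7 and ETV1, are not in these sums. Among the genes shown, DUSP5, SPRY4 and ETV5 take the largest share in both C8161 columns, and DUSP4, SPRY2 and ETV4 in both A2058 columns.

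The order of the 10 levels was the same in both C8161 columns, from PHLDA1 at 56.7 RPKM with ATF3 and 55.9 RPKM in the control to SPRY1 at the low end. In A2058 only the top places changed, with ETV4 at 81.1 and DUSP4 at 79.0 RPKM with ATF3, and DUSP4 at 80.7 and ETV4 at 79.8 RPKM in the control. ETV4 and DUSP4 changed order between the arms, so which of them is higher is not settled. SPRED1 and SPRY2 in C8161 kept their order, at 12.7 and 10.9 RPKM with ATF3 and 12.8 and 10.7 RPKM in the control. At the low end of A2058, DUSP5 lay at 8.17 and 7.68 RPKM and SPRY1 at 10.2 and 9.75 RPKM. PHLDA1 and ETV5 led in C8161, and ETV4 and DUSP4 in A2058.

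Other genes taken as ERK outputs were more often higher than lower in C8161. The list of 20 such genes includes the ETS factors ELK1, ELK3 and ELK4, and whether each gene follows ERK in these lines was not tested. Of the 20, 19 were compared between the controls, and 10 were higher and 3 lower in C8161 by a log2 ratio of 1 or more, with a median of 1.32. With ATF3 these were 10 higher and 2 lower, with a median of 1.07. Of all genes, 9.36% were higher and 20.7% lower in the controls, and 9.92% and 21.4% with ATF3. FOSL1, an AP-1 subunit stabilised by ERK, was at 560 RPKM in C8161 with ATF3 and 489 RPKM in its control, against 48.6 and 45.4 RPKM in A2058. CCND1, cyclin D1, was at 152 and 151 RPKM against 23.6 and 22.7 RPKM. EPHA2, an ephrin receptor, was at 91.3 and 100.2 RPKM against 13.9 and 14.4 RPKM, and PLAUR, the urokinase receptor, at 168 and 183 RPKM against 41.6 and 33.4 RPKM. LIF, a cytokine, was at 18.5 and 22.5 RPKM against 3.71 and 3.50 RPKM, and the ETS factor ETS1 was at 116 and 106 RPKM against 35.6 and 36.7 RPKM. ELK3, another ETS factor, was at 48.1 and 44.8 RPKM against 13.1 and 13.9 RPKM. EPHA4, FOS and TRIB1 were the outputs lower in C8161 by the mark in the controls. The median of these outputs lay above 0 and that of the feedback genes below it.

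Further members of the families were divided. Of 13 compared between the controls, 2 were higher and 4 lower in C8161 by the mark, against 9.36% and 20.7% of all genes. With so few genes these counts are no mark of the families. DUSP1, a nuclear phosphatase induced by stress and mitogens, was at 50.3 and 51.4 RPKM in C8161 against 10.5 and 9.23 RPKM in A2058. DUSP10, which prefers the stress kinases p38 and JNK, was at 1.92 and 2.05 RPKM against 14.2 and 15.0 RPKM. DUSP9, another ERK phosphatase, entered the comparison through A2058 alone and was at 0.01 and 0.04 RPKM against 6.97 and 6.69 RPKM, and PHLDA3, a p53-induced relative of PHLDA1, at 5.70 and 6.58 RPKM against 31.9 and 30.1 RPKM. DUSP2 was the other gene lower by the mark and SPRED3 the other one higher. The kinases themselves differed less. Of 19 genes of the RAS-RAF-MEK-ERK cascade, 2 were higher and none lower in C8161 by the mark, against the same shares of all genes. Their median log2 ratio was 0.066 in the controls. The 2 were RASA1 (9.25 and 9.37 RPKM against 3.80 and 3.91) and RASA2 (9.08 and 8.09 RPKM against 3.16 and 3.52), both GTPase-activating proteins that switch RAS off.

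Upstream of RAS, single receptors differed by large folds. Of 18 receptors and adaptors compared between the controls, 2 were higher and 5 lower in C8161 by the mark, near the 9.36% and 20.7% of all genes. Of the 5 lower genes, ERBB3, FGFR2, FGFR3 and KIT entered the comparison through A2058 alone, and EGFR, one of the higher genes, through C8161 alone. EGFR, the epidermal growth factor receptor, was at 47.1 and 46.2 RPKM in C8161 against 0.07 RPKM in both A2058 columns. AXL, a receptor tyrosine kinase, was at 294 and 280 RPKM against 12.6 and 11.4 RPKM. ERBB3, the neuregulin receptor, was at 0.65 and 0.77 RPKM in C8161 against 52.7 and 54.0 RPKM in A2058, and FGFR4 at 2.02 and 2.16 RPKM against 21.1 and 21.5 RPKM. The melanoma and melanocyte markers differed along with these genes. All 12 were lower in C8161, with a summed level of 55.0 and 56.8 RPKM against 2150 and 2100 RPKM. In C8161, 8 of them lay under 1 RPKM with ATF3 and 9 in the control, so these entered the comparison through A2058 alone. Below their bands in both arms were MITF, SOX10, PMEL, DCT, S100B, S100A1, MCAM, CSPG4 and PRAME, and with ATF3 also TYR. Markers of other cell types also differed. The 6 endothelial markers summed to 81.6 and 76.5 RPKM in C8161 against 2.25 and 2.13 RPKM in A2058, mostly TIE1 and CDH5, with PECAM1, VWF, KDR and TEK under 1 RPKM. The 6 fibroblast markers summed to 0.76 and 0.74 RPKM against 13.6 and 12.3 RPKM, mostly COL1A1 and LUM in A2058, with COL1A2, COL3A1, DCN and PDGFRB under 1 RPKM. The 4 listed leukocyte markers, mostly CD68, summed to 38.5 and 30.3 RPKM against 40.8 and 38.1 RPKM, with PTPRC under 1 RPKM. The 5 listed keratinocyte markers, mostly SFN in C8161, summed to 167 and 163 RPKM against 33.4 and 31.8 RPKM, with KRT5, KRT14 and CDH1 under 1 RPKM. The part of these markers in the differences of the feedback genes was not tested.

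**Figure D5:**
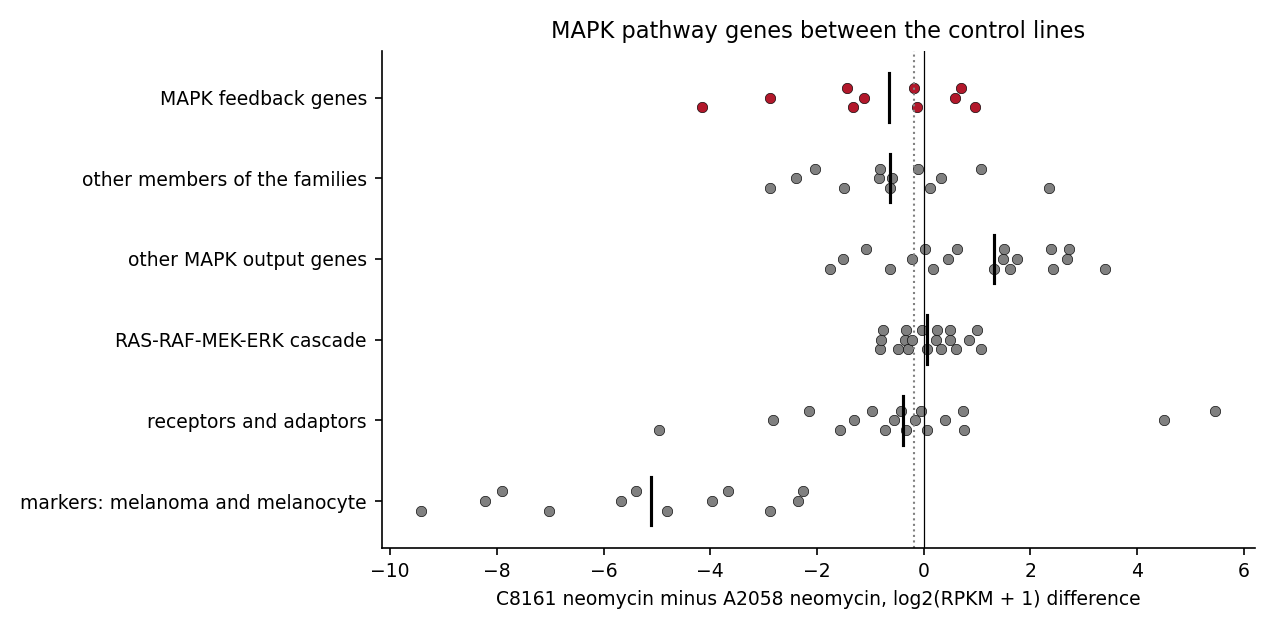
C8161 neomycin minus A2058 neomycin in log2(RPKM + 1), 1 point per gene, for the feedback genes (red) and 5 context lists (grey); black bars are list medians, and the dotted line is the median of all genes, −0.185. The feedback genes have a median of −0.65 and the other genes taken as ERK outputs one of 1.32, while the cascade genes lie around 0.

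In the wider pathway few genes passed the mark with introduced ATF3, as was so for all genes. Of all genes, 2.58% were called higher and 3.2% lower in C8161, and 2.34% and 1.85% in A2058. In C8161, none of 19 cascade genes and 1 of 19 other outputs, LIF, passed a log2 ratio of 0.25 in size. SOS1, an exchange factor that loads RAS with GTP, was at 5.70 RPKM with ATF3 against 4.54 RPKM, a log2 ratio of 0.27, just above its level band. Among the further family members, PHLDA2, at 134 against 168 RPKM, and DUSP2, at 2.10 against 2.73 RPKM, were called lower and lay below their bands. With GC and length trends taken out, the log2 ratio of ETV4 in C8161 was 0.16 instead of 0.05, still short of the mark. In A2058, PLAUR was called higher, at 41.6 RPKM with ATF3 against 33.4 RPKM, a log2 ratio of 0.31. FOS, at 9.40 against 7.83 RPKM, lay above its level band. MYC, at 38.6 against 42.5 RPKM, lay narrowly below its band, at −0.134 against a lower bound of −0.12. So did the ERK-activated kinase gene RPS6KA1, at 20.7 against 22.8 RPKM, with −0.132 against −0.129. Of all genes, 2.67% lay above and 2.72% below their bands in A2058, and 2.74% and 2.67% in C8161. Markers of cell types also lay outside their bands with ATF3. In C8161 the endothelial cadherin gene CDH5 was at 18.1 RPKM with ATF3 against 8.86 RPKM in the control, a log2 ratio of 0.96, and the macrophage marker CD68 was at 37.6 against 29.03 RPKM, a log2 ratio of 0.36. Both lay above their bands. In A2058 the keratinocyte marker SFN was at 1.48 against 0.71 RPKM, a log2 ratio of 0.54, and the lysozyme gene LYZ at 2.07 against 1.28 RPKM, a log2 ratio of 0.43, both above their bands. SFN was under 1 RPKM in the control and entered the comparison through the ATF3 column alone. Of the melanoma markers in A2058, MLANA lay above its band, at 20.7 against 17.8 RPKM, and DCT below, at 292 against 308 RPKM. The part of these markers in the ATF3 ratios of the feedback genes was not tested.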

How the data were processed

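Total RNA of A2058 and C8161 melanoma cells was sequenced, 8 libraries in all. The deposited values are RPKM, per the file headers, in 1 table. Per the submitters' processing notes the authors used Bowtie2, RSEM and hg38. Versions, annotation, filters and strandedness are not stated there. Whether the combined C8161 columns are means or pooled reads is not stated. No source says whether the 3 libraries of a C8161 arm came from separate cultures. Values were used as deposited in Python 3.11.15 with pandas 2.3.3.

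Symbols and positions came from RefSeq genes of GRCh38.p14 (18156 of 18478 identifiers matched), and GC content and length from the longest GENCODE transcript (17850 genes). Level bands were also run on simulated reads with known folds. Those reads held counting error alone, without spread between cultures or the wide differences between lines, so they do not test the bands used here. Depth was sought in values under 0.5 RPKM of genes with transcripts of 400 to 1500 bases, as whole-read steps over 10000000 to 40000000 reads. The highest coherence with such steps was 0.303 and 0.299 in A2058 (ATF3 and control) and 0.107 and 0.195 in C8161. Its median over the depths searched was 0.116 and 0.154 in A2058 and 0.0236 and 0.0688 in C8161.

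Pathway genes and melanoma markers were named by a rule: up to 4 per list with a mean of at least 2 RPKM and the largest absolute ratio in the comparison, and any outside the level band. Not every gene that ranks among these is printed. FGFR2, FGFR3, KIT, SPRED3, markers of other cell types and, between lines, EPHA4, FOS, TRIB1 and DUSP2 were named after their values were seen. Alternatives to the pseudocount, minimum level and scaling were tried. The members, lists and marks were chosen with earlier results of these data known.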

Additional observations from a re-analysis of the deposited data

Results flagged for a closer look

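The ATF3 ratio, with ATF3 minus control in log2(RPKM + 1), had opposite signs in C8161 and A2058 for 4 of the feedback genes. With 1 value per arm the difference between lines was not tested. For DUSP4 the ratio was 0.15 in C8161 and −0.03 in A2058, a difference of 0.18. For SPRY2 it was 0.02 and −0.03, a difference of 0.06. For SPRY4 it was 0.04 and −0.02, a difference of 0.06, and for ETV5 it was 0.02 and −0.08, a difference of 0.10. All 8 of these ratios lay inside their level bands.

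Of the context genes outside a level band in a line, 3 had ratios of opposite sign, also untested. PHLDA2 was at −0.32 in C8161 and 0.03 in A2058, a difference of −0.35. SOS1 was at 0.27 and −0.10, a difference of 0.37, and PLAUR at −0.13 and 0.31, a difference of −0.43.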

How the results depend on the processing

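No paired analysis was possible because the table gives 1 combined value per C8161 arm, and leaving out single libraries was not run for the same reason. The other settings were a pseudocount of 0.1 RPKM, no minimum level, a minimum of 5 RPKM, columns rescaled to a common sum, quantile normalization, and removal of GC and length trends. In the ATF3 comparisons no feedback gene was called under any of them; the largest log2 ratio was 0.191 in size in C8161 and 0.097 in A2058. Between the control lines 1 gene, DUSP5, was higher by the mark with a pseudocount of 0.1 (1.03), after quantile normalization (1.20) and after removal of trends (1.14). With ATF3, 1 gene (DUSP5) was higher after quantile normalization (1.13) and removal of trends (1.14). Removal of trends gave a median of −0.50 in the controls and −0.467 with ATF3. ETV4 with ATF3 was then at −0.60, and at −0.99 after quantile normalization. The cause was not tested. Quantile normalization moved the median of all genes between the control lines from −0.185 to 0.079 and the higher share of calls from 31.2% to 47.4% (with ATF3, −0.182 to 0.098 and 31.7% to 47.9%), and SPRED1 to 0.09 and 0.14. In the ATF3 comparison of C8161 the higher share of calls was 44.6%, against 61.9% with rescaled columns and 74.5% without trends. Over all genes, 282 were called higher and 350 lower there, against 475 and 558 with a pseudocount of 0.1, 598 and 368 rescaled, and 341 and 117 without trends. In A2058 278 and 220 were called, against 503 and 432 with a pseudocount of 0.1, 450 and 373 without a minimum, 102 and 61 with a minimum of 5 RPKM, and 544 and 565 rescaled. Without replicates, depth and spread limit every ratio near 0.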
